A study of Homo sapiens with 4 samples.

Results

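The R273H-only arm peaks are sites where p53 chromatin immunoprecipitation with sequencing (ChIP-seq) gave a peak in HCT116 cells labelled p53-R273H and no overlapping peak in the wildtype control. Of 2008 R273H peaks in the list, 1568 (78.1%) shared no base with any of the 2059 wildtype peaks. Of these, 812 lay over 100 kb from the nearest RefSeq gene, 122 more had their midpoint within 3 Mb of a chromosome end and 2 more lay at 8 to 9 Mb of chromosome 21, where ribosomal RNA genes are. The 632 peaks left (31.5% of the list) are described here. They were chosen by their lack of wildtype overlap, their distance to genes and their position, so none of these properties is a finding. On the same parts of the chromosomes lay 334 R273H peaks that overlapped a wildtype peak (shared arm peaks) and 990 wildtype peaks without an overlapping R273H peak (wildtype-only arm peaks). The R273H-only peaks thus made up 65.4% of the 966 R273H arm peaks.

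HCT116 is a human colon cancer cell line, grown here as spheroids in serum-free medium with 20 ng/ml each of epidermal and of basic fibroblast growth factor and taken at passages 13 to 18. The genotypes were p53-R273H and a wildtype control named ctrl-19-7, both with the antibody DO-1 against p53, with 1 ChIP and 1 input library per genotype. The sources used here give neither how R273H was introduced nor whether either line is a single clone. The series set out to find long noncoding RNA (lncRNA) genes that differ with R273H, and the peaks ask where p53 was found on chromatin in each genotype. With 1 ChIP library per genotype, a difference between the lists has no replicate check and no p-value was computed. The 95% intervals given are exact binomial (Clopper-Pearson) ones and cover counting error only, and neighbouring peaks are not independent. Read depth is unknown from a peak list. A peak list measures no RNA and cannot check the cell type. None of 12 colon epithelium markers and none of 17 markers of other cell types had an R273H-only arm peak inside or within 10 kb. With 1.63% of all protein-coding genes having such a peak, that is near the background. Neither marker list had a wildtype-only or a shared arm peak at that distance.

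The protein p53 is a tetrameric transcription factor that binds a pair of decamers in DNA and, after DNA damage and other stress, raises genes for cell cycle arrest, apoptosis and repair. R273H replaces an arginine of its DNA-binding domain that touches DNA, and it is among the frequent p53 changes in colorectal cancer. Proteins with this change can be found on chromatin together with other transcription factors, away from the classical p53 sites. The epitope of DO-1 is near the N terminus, outside the DNA-binding domain.

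Gene starts with their sequence came from a RefSeq promoter table that covers 27305 of the 59679 genes, none of them a small nucleolar RNA gene. Among the genes of this table, 2 had a start under an R273H-only arm peak, and 2 more had a peak in the 250 bases before the start. A second start of NOMO2 in the table lay under the same peak. Its window is left out of the motif counts below, while the shares over all windows count every window. The sequences of these genes before the start come from that table (GRCh38.p14, which is hg38). They are shown 5′ to 3′ on the strand of the gene, with the bases under the peak in capitals. They are shown because they are the promoters of the table that these peaks touched. Peaks over whole genes outside the table, such as SNORD3A and USP17L12, are described further on.
NOMO2, chr16:18562113-18562362: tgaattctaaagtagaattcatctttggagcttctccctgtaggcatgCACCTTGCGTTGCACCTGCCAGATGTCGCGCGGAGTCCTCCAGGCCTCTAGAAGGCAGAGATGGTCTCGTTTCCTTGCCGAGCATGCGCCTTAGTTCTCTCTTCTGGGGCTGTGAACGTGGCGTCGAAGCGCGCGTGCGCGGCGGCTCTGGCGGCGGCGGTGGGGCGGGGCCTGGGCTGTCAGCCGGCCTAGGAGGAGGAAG
POLR3E, chr16:22297159-22297408: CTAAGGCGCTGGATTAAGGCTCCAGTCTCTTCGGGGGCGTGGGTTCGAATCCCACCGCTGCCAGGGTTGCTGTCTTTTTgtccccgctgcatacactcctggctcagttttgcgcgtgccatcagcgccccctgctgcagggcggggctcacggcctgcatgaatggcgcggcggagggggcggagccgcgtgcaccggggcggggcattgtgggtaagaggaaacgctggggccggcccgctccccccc
USP40, chr2:233566783-233567032: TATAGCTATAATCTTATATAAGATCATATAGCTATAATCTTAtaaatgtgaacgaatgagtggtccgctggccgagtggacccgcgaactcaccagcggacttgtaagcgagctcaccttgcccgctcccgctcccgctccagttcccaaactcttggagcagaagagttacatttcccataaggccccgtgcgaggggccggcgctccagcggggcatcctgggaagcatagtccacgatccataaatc
LOC105375451, chr7:110534718-110534967: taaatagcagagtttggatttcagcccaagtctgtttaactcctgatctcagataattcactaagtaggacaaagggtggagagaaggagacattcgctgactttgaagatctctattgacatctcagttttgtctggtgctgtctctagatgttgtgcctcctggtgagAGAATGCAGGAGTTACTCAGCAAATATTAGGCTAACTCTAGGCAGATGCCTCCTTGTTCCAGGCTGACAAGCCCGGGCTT

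NOMO2, on the minus strand, encodes a membrane protein of the endoplasmic reticulum. Its peak had a score of 64.9 and covered its start and 202 of the 250 bases printed. POLR3E, on the plus strand, encodes a subunit of RNA polymerase III. Its peak (score 56.9) ended 172 bp before the POLR3E start and covered all of TRL-AAG2-4 (chr16:22297140-22297221), a leucine transfer RNA gene, which makes up most of the 79 capitals. USP40, on the minus strand, encodes a ubiquitin-specific protease. The stronger of its pair of peaks (chr2:233566991-233567313, score 159) ended in the AT-rich capitals, 209 bp from the start. LOC105375451 is a noncoding gene on chromosome 7, and its peak scored 53.8. The p53 decamer consensus was searched by name on both strands of the whole windows, from 250 bases before to 50 bases after the start. None of the 4 windows held it without a mismatch, against 6.64% of all 34943 windows, and 3 of 4 held it with up to 1 mismatch, against 63.7% of all windows. GGGCGG, the core of GC boxes, stood in 3 windows (44.9% of all), CATG in 3 (55.0%), TATAAA in 1 (11.6%) and CACGTG in 1 (7.23%). CCAAT (34.6% of all), TGACTCA (4.96%) and CCGGAAG (10.2%) were not among the letters of these windows. The B box consensus, a polymerase III promoter element inside transfer RNA genes, was searched by name after the peak over TRL-AAG2-4 was seen. It stood in the POLR3E window and in 0.083% of all windows. These matches describe the letters only.

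The R273H-only arm peaks scored lower than the shared arm peaks of their own list and near the middle of the whole list. The score is the authors' own per peak, on a scale that the sources used here do not give, and started at 50.02 in this list. The 632 peaks ran from 50.02 to 304, with a median of 58.9 and quartiles of 53.8 and 70.5. The shared arm peaks of the same list had a median of 159, quartiles of 88.9 and 368 and a highest score of 3204. The whole list of 2008 had a median of 61.9. A score of at least 100 was reached by 56 of the 632 (8.86%, interval 6.76 to 11.4) and by 229 of 334 shared arm peaks (68.6%, 63.3 to 73.5), and by 19.5% of the whole list. At least 200 was reached by 6 of the 632. The R273H-only peaks were also narrow, with a median width of 157.5 bp and quartiles of 118.75 and 240.25 bp, while the shared arm peaks had a median of 347.5 bp. Low scores and narrow widths were not particular to them. The wildtype-only arm peaks, scored in the other list, had a median score of 61.9 and a median width of 201 bp, and 16.2% scored at least 100. At the other end, 37 of the 632 (5.85%) were wider than 1000 bp, against 3 of the 334 shared arm peaks, 37 of the 990 wildtype-only arm peaks and 425 of the 2008 in the whole list (21.2%). The lowest score in the wildtype list was 50.01, so a wildtype site below that score is not seen, and how many of the weak peaks have one was not tested.

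**Figure D1:**
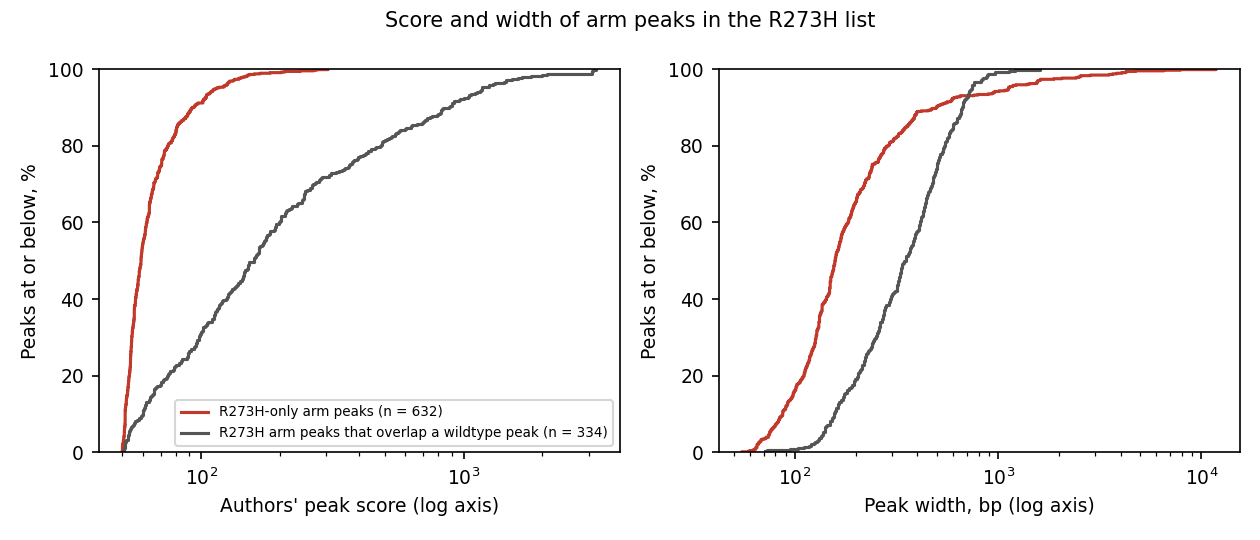
Cumulative share of peaks (vertical axis, percent) against the authors' score (left, log axis) and the peak width in bp (right, log axis) for the 632 R273H-only and the 334 shared arm peaks of the R273H list. The R273H-only curve lies to the left in score, with medians of 58.9 and 159, and it is narrower at the median but has a longer tail above 1000 bp.

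Of the 20 strongest R273H-only arm peaks, 7 lay inside a gene and 13 outside. The highest (chr4:131201345-131202287, score 304) stood 65094 bp from the lncRNA gene LOC105377422. The next (chr13:104654209-104655101, score 275) stood 34881 bp from LOC107984624, with a peak of score 85.6 only 4 bases away. GPC6, which encodes the cell surface proteoglycan glypican 6, held a peak of 268 at chr13:94105913-94106249. TMC6, which encodes a transmembrane channel-like protein, held one of 238 at chr17:78115620-78115994. A peak of 208 stood 41345 bp from RNU6-718P, a pseudogene of a spliceosomal RNA, and one of 202 stood 1989 bp from LOC107987007. Below 200 came a peak 17183 bp from LOC124903746 (183), one inside LINC02208 (168), the USP40 peak named above, and one 94003 bp from MRPS35P1 (153). SDK1, a neuronal adhesion protein gene, held a peak of 150, and AGO2, which encodes the argonaute protein that cuts the targets of small RNAs, held one of 149.77.

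The rest of the 20 highest scored from 132 to 148. They lay 63918 bp from RPS28P7, 5726 bp from TMEM242, inside LOC283045, 3295 bp from LOC124903741, 5016 bp from CDC42BPB (a kinase of actin control), 1731 bp from C10orf90, 93548 bp from FRG1CP and inside MEGF6. The wildtype list had no overlapping peak at any of them by the rule. SDK1 held 4 R273H-only peaks and no wildtype peak. The first of these scored 128, and the other three, 74.96, 122 and 150.22, followed each other with 46 and 19 bases between them. Close pairs recurred: 16 neighbouring pairs were at most 1000 bp apart, and joining them left 616 loci. The USP40 peak had a second one of score 114 beyond a gap of 9 bases, TEX29 peaks of 76.8 and 111 were 2 bases apart, and TMEM242 peaks of 144 and 91.8 were 463 bases apart. RBFOX1, which encodes a neuronal splicing factor and spans 2473620 bp, held 4 peaks of 55.9 to 71.6 and also 1 wildtype peak. The immunoglobulin kappa locus (IGK) held 3, with scores up to 56.0 and no wildtype peak, and 19 more genes held 2.

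A smaller share of the R273H-only than of the wildtype-only arm peaks lay in protein-coding genes. Of the 632, 374 (59.2%, interval 55.2 to 63.0) lay inside a gene, against 668 of 990 wildtype-only arm peaks (67.5%, 64.5 to 70.4) and 203 of 334 shared ones (60.8%). A protein-coding gene held 229 (36.2%, 32.5 to 40.1), against 466 (47.1%, 43.9 to 50.2) of the wildtype-only and 139 (41.6%) of the shared peaks. A further 90 (14.2%) lay in lncRNA genes only, 55 (8.70%) in other genes only, and 258 (40.8%) in no gene. A pseudogene was the nearest gene of 159 (25.2%), against 190 (19.2%) of the wildtype-only and 51 (15.3%) of the shared peaks. The wildtype-only and R273H-only intervals did not overlap for protein-coding genes, which with 1 library each compares those libraries and not the genotypes. The gene table gives no exons, so exon, intron and untranslated region are not given.

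Around the gene starts of the promoter table the R273H-only shares were the lowest of the 3 classes at every distance computed. Genes without a window in the table, among them the USP17L and SNORD3 genes that R273H-only peaks cover, do not enter. Chromosome 8, with 38 R273H-only peaks, had no starts to use and is left out. A start of the table lay under 2 of the other 594 (0.337%, 0.0408 to 1.21), under 15 of 938 wildtype-only (1.60%, 0.898 to 2.62) and under 11 of 315 shared peaks (3.49%, 1.76 to 6.16). Within 1 kb of a start were 23 R273H-only peaks (3.87%, 2.47 to 5.75), 58 wildtype-only ones (6.18%, 4.73 to 7.92) and 26 shared ones (8.25%, 5.46 to 11.9). At these short distances the intervals of the R273H-only and wildtype-only peaks overlap. Within 10 kb were 108 (18.2%, 15.2 to 21.5), 269 (28.7%, 25.8 to 31.7) and 84 (26.7%, 21.9 to 31.9). The median distance to a start was 37134.5 bp for the R273H-only, 24946 bp for the wildtype-only and 27142 bp for the shared peaks. At 10 kb the R273H-only interval lies below both others. Over all 59679 genes, for which the gene table gives both ends but no strand, an end lay within 1 kb of 113 R273H-only (17.9%, 14.97 to 21.1), 203 wildtype-only (20.5%, 18.0 to 23.2) and 56 shared arm peaks (16.8%, 12.9 to 21.2). These intervals overlap, as do those of the R273H-only and wildtype-only peaks within 1 kb of a start. By the shares alone, the R273H-only peaks were below the wildtype-only ones at the ends too, but the shared peaks were lowest there.

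**Figure D2:**
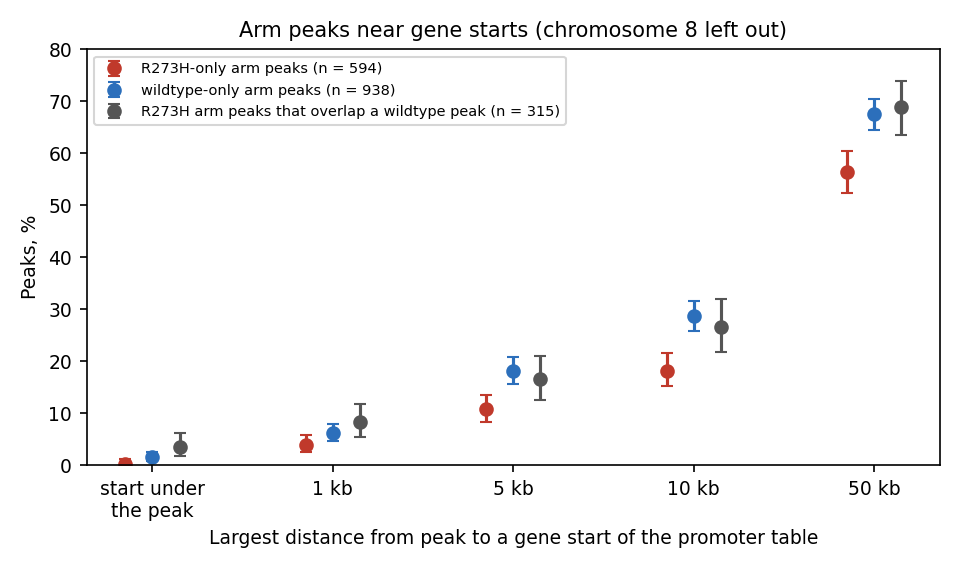
Share of arm peaks (vertical axis, percent) with a gene start of the promoter table under the peak or within 1, 5, 10 or 50 kb, for 594 R273H-only, 938 wildtype-only and 315 shared arm peaks, with exact 95% intervals as bars. Among the starts of that table the R273H-only points are the lowest at every distance, from 0.337% under the peak to 56.4% within 50 kb.

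The largest clusters of R273H-only arm peaks lay on gene arrays. Within 100 kb of another lay 172 of the 632 (27.2%), a share like that of the wildtype-only arm peaks (266 of 990, 26.9%), above that of the shared ones (46 of 334, 13.8%) and below that of the whole R273H list (1126 of 2008, 56.1%). They formed 64 clusters, of which 22 had 3 or more peaks and held 88. The other 460 stood alone. The largest cluster, 10 peaks at chr4:9220105-9366923, lay on the USP17L genes, a tandem family of ubiquitin-specific proteases on chromosome 4. The 23 genes of this array recur every 4746 bp over 158414 bp (median step), and 11 of them were under an R273H peak. The peaks scored 52.7 to 102, were 398 to 11807 bp wide and covered 44870 bp. No wildtype peak lay in the span, and the nearest were 182314 to 324844 bp away. Of the 5 widest R273H-only peaks, 4 lay here: 11807 bp at USP17L27, 6542 bp at USP17L24, 4739 bp at USP17L25 and 4289 bp at USP17L12. Another peak of 7873 bp, with a score of 133, lay on chromosome 20. It is the peak among the 20 strongest that has FRG1CP as its nearest gene, at the distance given above. USP17L7, a member of the family on chromosome 8, held a peak of 61.3 as well.

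The second cluster, of 9 peaks, lay on the REXO1L genes at 85642728 to 85816265 of chromosome 8, copies related to an RNA exonuclease. Here the wildtype list had peaks too, 9 in the span with scores of 52.3 to 143, and each R273H-only peak lay 3410 to 15604 bp from its nearest wildtype peak. The array as annotated had 10 R273H and 10 wildtype peaks, of which 1 of each overlapped at REXO1L6P. Of its 11 genes, 7 were under an R273H peak and 1 under a wildtype peak. In REXO1L8P, REXO1L4P and REXO1L5P the R273H-only peak began 198 bp from the low end of the gene, and in REXO1L9P 197 bp. In REXO1L2P it began 37 bp inside the low end and in REXO1L12P it began before that end. Apart from REXO1L6P, the wildtype peaks lay between the genes.

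The third cluster lay on the genes of U3, the box C/D small nucleolar RNA that guides the first cuts of the ribosomal RNA precursor. Each of the 5 SNORD3 genes annotated in chr17:19061991-19190129 had an R273H-only peak on it, and the nearest wildtype peaks were 562918 to 690818 bp away. The sources used here do not give how reads that match several copies of a gene were placed. So which copy gave a peak cannot be told, here or in the USP17L and REXO1L arrays. The peak over SNORD3A scored 125, that over SNORD3B-2 108, that over SNORD3B-1 105, that over SNORD3D 94.2 and that over SNORD3C 83.9, all above the upper quartile of 70.5. They were 141 to 326 bp wide, close to the 217 bp of the genes. Those on SNORD3A and SNORD3B-2 covered the whole gene. Those on SNORD3B-1 and SNORD3D covered 138 bp and were mirror images, each reaching 101 bp beyond one end of the gene and stopping 79 bp short of the other. Over all gene types, 5 of 1199 small nucleolar RNA genes had an R273H-only arm peak inside, all SNORD3, and none had any wildtype peak inside. Over all 59679 genes, 390 (0.653%) had an R273H-only arm peak inside. Of 154 small nuclear RNA genes, RNU1-1, a gene of the U1 spliceosomal RNA, had one (chr1:16513850-16514323, score 52.6). Of 443 transfer RNA genes, TRL-AAG2-4 had one, against 20 with a wildtype-only arm peak and 23 with any wildtype peak inside. Inside or within 10 kb, 3 transfer RNA genes had an R273H-only, 46 a wildtype-only and 13 a shared arm peak. No R273H-only arm peak lay in any of 49 ribosomal RNA genes, some of which the rule leaves out. A wildtype-only arm peak, under the same rule, lay in 15 of them, and any wildtype peak in 28. Counted inside or within 10 kb, 11 small nucleolar RNA genes (0.917%) had an R273H-only and 19 a wildtype-only arm peak.

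**Figure D3:**
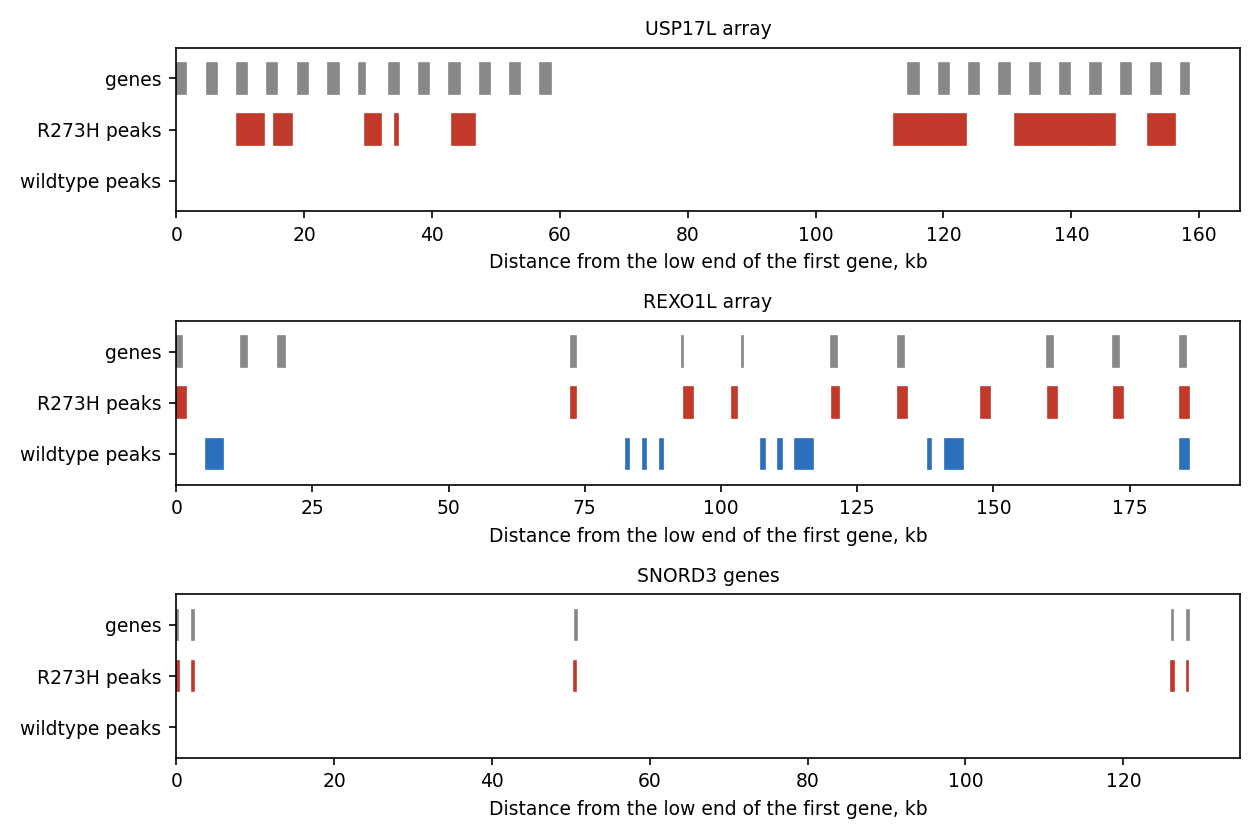
Genes (grey), R273H peaks (red) and wildtype peaks (blue) along the USP17L, REXO1L and SNORD3 arrays, with the distance from the low end of the first gene in kb on the horizontal axis. The USP17L and SNORD3 arrays hold 10 and 5 R273H peaks and 0 wildtype peaks, and the REXO1L array holds 10 peaks of each list.

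The other clusters of 5 lay at chr2:91753110-92038991 (scores 51.5 to 62.2), near CHEK2P3, IGSF3P2, SLC9B1P2 and a pair of immunoglobulin kappa orphons, and at chr20:28655251-28693016 (55.7 to 109), near the pseudogene FRG1CP. Both were close to the largest gene-free interval of their chromosome, which on most chromosomes holds the centromere. Within 5 Mb of it lay 139 of the 632 (21.99%, interval 18.8 to 25.4), 142 of 990 wildtype-only arm peaks (14.3%, 12.2 to 16.7) and 37 of 334 shared ones (11.1%). So not all of these peaks lie well out on an arm.

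Copies of other duplicated genes had R273H-only peaks of equal width or at matching places. The families here were chosen after their values were seen. The 3 NOMO genes each had an R273H-only peak about 53 kb into the gene: 53254 bp from the low end of NOMO1 (score 55.3), 53067 bp in NOMO3 (55.6) and 53035 bp from the high end of NOMO2 (56.7), which lies in the opposite direction. GOLGA8J and GOLGA8T, golgin family copies on chromosome 15, had peaks of the same 102 bp width that began 766 bp from the low end, with scores of 68.1 and 79.7. GOLGA8O had one of 102 bp and 73.4. PRAMEF11, PRAMEF6 and PRAMEF5, of a family expressed in tumours and testis, had peaks of 101 bp each, with scores of 58.7, 54.2 and 52.4. FAM86B1 and FAM86B2 both had a peak of 136 bp and score 51.25. Across the 632, 86 peaks (13.6%) shared score and width exactly with another, in 36 groups, of which 29 spanned several chromosomes. None of these scored above 70.7. The share was 151 of 990 in the wildtype-only arm peaks and 14 of 334 in the shared ones. The sources used here do not give how reads that match several copies were placed, so which copy gave a peak cannot be told, and the part of this in the results was not tested.

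By family, 24 of 29 USP17L genes (82.8%) had an R273H-only arm peak inside or within 10 kb and none had a wildtype peak, 8 of 11 REXO1L genes had one and 8 had a wildtype peak, and 5 of 12 SNORD3 genes had one and 1 had a wildtype peak. All 3 NOMO genes, 6 of 14 FAM86 and 5 of 31 PRAMEF genes had one, against 0, 1 and 0 with a wildtype peak. Of 19 GOLGA8 genes 3 had one and 8 had a wildtype peak, of 10 FRG1 genes 4 and 5, and of 23 NBPF genes 2 and 1. Other families went the opposite way: 17 of 19 PCDHB genes, of the clustered protocadherins, 12 of 22 TBC1D3 genes and 24 of 527 5S ribosomal RNA genes and pseudogenes had a wildtype peak, and 0, 0 and 3 had an R273H-only arm peak. These counts stand beside 728 of 59679 genes in all (1.22%) with an R273H-only arm peak inside or within 10 kb, 1334 (2.24%) with a wildtype-only arm peak and 2076 (3.48%) with any wildtype peak. Counted by peaks inside the gene alone, 390 genes (0.653%) had an R273H-only arm peak, among them 12 USP17L, 6 REXO1L, 5 SNORD3 and 3 NOMO genes. Among symbol families not picked by their values, 15 of 702 ZNF zinc finger genes (2.14%), 10 of 864 OR olfactory receptor genes, 6 of 552 SLC transporter genes, 2 of 80 PCDH genes and 0 of 113 KRTAP hair keratin associated genes had one. The corresponding counts with any wildtype peak were 31 ZNF, 13 OR, 25 SLC and 17 PCDH genes.

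Of 79 classical p53 target genes, 6 had an R273H-only arm peak inside or within 10 kb. Of 21 genes of arrest and of the feedback on p53, which include CDKN1A and MDM2, none had one inside or within 10 kb, while 8 had a shared arm peak and 2 a wildtype-only one. Of 19 apoptosis targets, 1 had one: BAK1, which encodes a pore former of the outer mitochondrial membrane, with a peak of 56.1 at a distance of 9484 bp. Of 39 targets in repair, metabolism and signalling, 5 had one. ACER2, a ceramidase gene, held the strongest (chr9:19428016-19428079, score 94.3), followed by EPHA2, a receptor tyrosine kinase gene (63.42), NINJ1, a gene of plasma membrane rupture (59.3), and ASTN2 (59.0). FUCA1, a lysosomal fucosidase gene, had one 2561 bp away, inside CNR2, with a score of 54.0, beside 2 wildtype peaks of up to 76.8. Over the 3 lists this made 6 of 79 genes (7.59%), against 18 with a shared and 9 with a wildtype-only arm peak. The share over all protein-coding genes was 1.63%, and the median gene length was 23.4 kb in the lists and 24.1 kb over all protein-coding genes. The BAK1 and NINJ1 peaks each shared score and width with an R273H-only arm peak on another chromosome. With 1 peak kept per group of equal score and width, a setting chosen after seeing the data, 4 target genes had one. The lists were chosen with these peaks known, so their counts describe them and support nothing.

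Of 38 genes that other work ties to mutant p53, such as the mevalonate pathway genes, ABCB1 and CCNA2, none had an R273H-only arm peak, which at 1.63% of all protein-coding genes is near the background. Among colorectal cancer drivers, ERBB3, a receptor gene of neuregulins, had one at 9340 bp with a score of 53.9. This peak lay inside another gene, PA2G4, and had the same score and width as a peak in HERC2 on chromosome 15.

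Among genes of stemness and Wnt signalling 2 had an R273H-only arm peak. Of 35 colorectal stem cell and epithelial to mesenchymal transition genes, only ZEB1, a repressor of epithelial genes, held one (61.2). Of 17 Wnt genes, only NKD1, a feedback inhibitor, held one (75.6). With 1.63% of all protein-coding genes having such a peak, single genes in lists of this size are near the background. Large genes at common fragile sites had 4 of 30: CNTNAP2 (67.7), DMD (67.3), PDE4D (64.5) and RAD51B (50.2). Axon guidance and synaptic adhesion genes had 2 of 32: PCDH15, a protocadherin gene (117), and CNTN5, a contactin gene (70.7). The median gene lengths of these last lists were 1184 kb and 812 kb, against 24.1 kb over all protein-coding genes, and the part of gene length in their counts was not tested. All lists together had 16 of 329 matched genes (4.86%).

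**Figure D4:**
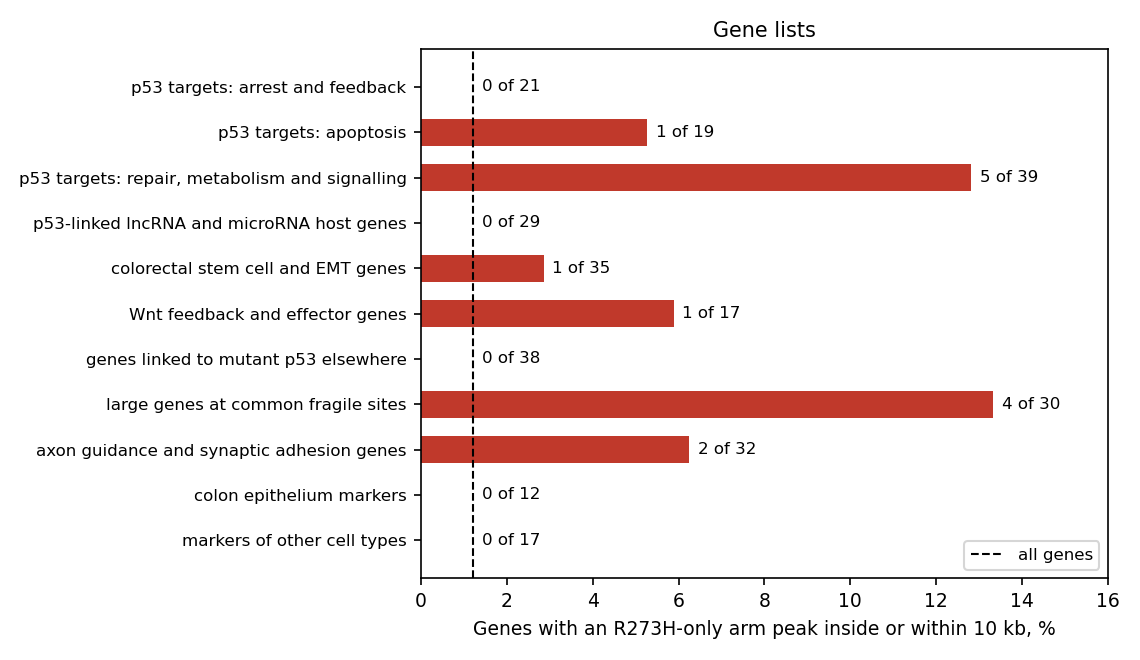
Share of genes (horizontal axis, percent) with an R273H-only arm peak inside or within 10 kb for 11 gene lists, with the count of genes at each bar and the share over all 59679 genes, 1.22%, as a dashed line. The arrest list, the p53-linked noncoding list, the list linked to mutant p53 and both marker lists are at 0, and the fragile-site genes are highest with 4 of 30.

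Of 18303 lncRNA genes, 191 (1.04%) had an R273H-only arm peak inside or within 10 kb, and 106 held it inside. None of 29 p53-linked lncRNA and microRNA host genes, such as MIR34AHG, NEAT1, PVT1 and PURPL, was among them. Beside the 1.04% of all lncRNA genes, none in a list of this size is near the background. In the same list 8 genes had a shared and 8 a wildtype-only arm peak inside or within 10 kb. After LOC107987007 and LINC02208, both named above, the highest scores stood at LOC283045 (142), LOC124903741 (139), the neighbours LOC107984979 and LOC107985077 (128 for both, from 1 peak) and the overlapping LOC101929380 and LINC01949 (126 for both, from 1 peak). None of these 8 had a wildtype peak within 10 kb. Of the 191, 12 had one, and of all 728 genes with an R273H-only arm peak 72 had one. Over all 59679 genes only 2076 (3.48%) had a wildtype peak inside or within 10 kb, so having none is usual for any gene. The counts by symbol were 39 of 2317 LINC genes with an R273H-only and 86 with any wildtype peak. Among microRNA genes, the nearest hairpins were MIR561 at 1534 bp, MIR4465 at 1558 bp, MIR6746 at 2550 bp and MIR205 at 2821 bp, the last from a peak of 53.3 inside its host gene MIR205HG. No hairpin was under a peak.

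Since the rule removed overlaps, the gaps to wildtype peaks are a description. The median gap was 421076 bp, against 770027 bp from the wildtype-only arm peaks to R273H peaks. A wildtype peak lay within 1 kb of 9 of the 632 (1.42%), within 10 kb of 38 (6.01%) and within 100 kb of 132 (20.9%). The wildtype-only arm peaks had shares of 2.63%, 6.36% and 18.4% at the same distances to R273H peaks. The smallest gaps inside the rule were 18 bp near LOC107986487, 29 bp near LOC124905071 and 91 bp in SRGAP3. Just outside it, peaks overlapped a wildtype peak by 24 bp near LOC124901300, 64 bp near CGA and 70 bp near PRIM2BP. On distance to a gene, the last inside were at 97595, 95741 and 94003 bp and the first outside at 100532, 100687 and 101327 bp. On distance to a chromosome end, the last inside were at 3022755 and 3023573 bp (TEX29) and 3199427 bp (MRGPRG), and the first outside at 2790890, 2776922 and 2749863 bp.

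Chromosome 16 carried more R273H-only than wildtype-only arm peaks, 42 against 33. That is 56.0% of its unshared arm peaks (interval 44.1 to 67.5), while over all chromosomes the share was 39.0% (36.6 to 41.4). The interval of chromosome 16 lies above that of the whole set, which includes it. Chromosome 16 is 1 of 24 chromosomes looked at, and no allowance was made for that number. The interval also treats neighbouring peaks as independent, which they are not. Chromosome Y had 9 against 4 and chromosome 20 had 25 against 26. On chromosome 2 there were 37 against 86 (30.1%, 22.1 to 39.0), on chromosome 17 21 against 48 (30.4%) and on chromosome 1 46 against 92 (33.3%). Among the 42 of chromosome 16 were the 5 NOMO peaks and the 4 RBFOX1 peaks.

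**Figure D5:**
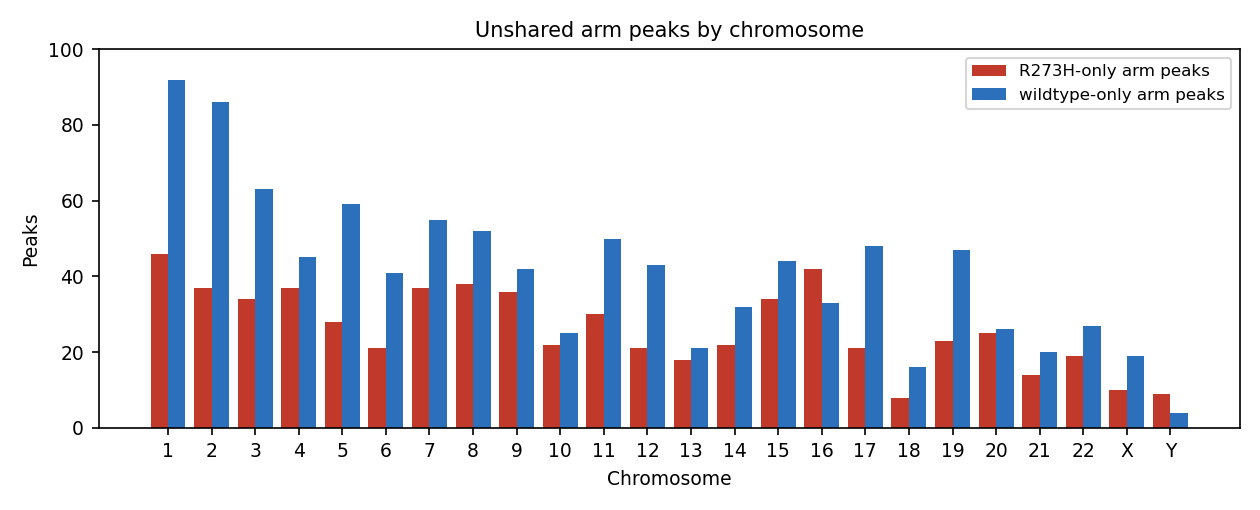
Number of R273H-only (red) and wildtype-only (blue) arm peaks on each chromosome. Red exceeds blue on chromosome 16 (42 against 33) and Y (9 against 4), and blue is higher on the others, by 86 against 37 on chromosome 2.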

How the data were processed

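The members and gene lists were chosen with earlier results of these data known. Per the labels, p53 ChIP-seq with DO-1 was made from HCT116 spheroid cells crosslinked in 1% formaldehyde for 5 min and sheared for 10 min. The submitters' processing notes name Bowtie 1.2.2, MACS, HOMER and hg38 but not their roles. The sources used here give neither the cutoff nor the use of the inputs. Each of the 2 deposited peak lists gives positions and the authors' score per peak. The score was used within a list, except in the setting that cut both lists at their common median score. Wildtype scores that stand beside R273H ones are printed as listed, and the scale of either list is not given. The descriptions of both ChIP samples point to the R273H list and those of both inputs to the wildtype list, so each list was given to the ChIP sample whose title it carries. If a list belonged to another sample, the genotype named for its peaks would change. Peak numbers below 193 (R273H) and 228 (wildtype) are not analysed here.

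Overlaps of at least 1 bp, gene distances and exact intervals were computed with Python 3.11.15, pandas 2.3.3, numpy 2.4.6 and scipy 1.17.1 from RefSeq tables of GRCh38.p14 (59679 genes, 34943 promoter windows). Of 330 list symbols, 329 matched and 1 did not. Clusters chain peaks within 100 kb. Tested on simulated data, the counting found all 300 planted overlaps in 20 of 20 simulations.

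Named were the 20 highest-scoring and 5 widest peaks, the 10 highest in genes or gene starts, the 3 nearest each side of a threshold, the 5 largest clusters, list genes with a peak (1 is not reported here), 8 lncRNA genes and the 5 genes with most peaks, of which the third rank was followed by a tie of 19. The families USP17L, REXO1L, SNORD3, NOMO, PRAMEF, FAM86, GOLGA8, FRG1, NBPF, PCDHB, TBC1D3 and RNA5S, and the close pairs, were chosen after their values were seen. Alternatives changed overlap, score, gene distance, gene types, end distance and cluster distance.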

Additional observations from a re-analysis of the deposited data

How the results depend on the processing

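No paired analysis was possible because each genotype had 1 ChIP library, and no replicate could be left out. Over 153 values recomputed under other settings, 111 stayed within the interval or within 1.5 times the count and 42 moved, as follows, and the causes beyond the construction of each setting were not tested. With only R273H peaks scoring at least 100, 56 peaks remained in the set, with a median score of 122.6 and width of 331.5 bp, 53.6% inside a gene, 12.5% within 1 kb of a gene end, 16.1% in clusters and 1.79% within 10 kb of a wildtype peak, near 57 genes, 14 lncRNA genes and 0 p53 targets. With both lists at or above their common median score of 63.42 there were 242 peaks, with a median score of 77.7 and width of 179 bp, 55.0% inside a gene, 17.8% in clusters and 8.26% within 10 kb of a wildtype peak, near 258 genes, 64 lncRNA genes and 2 p53 targets. Allowing 1 Mb to a gene gave 1079 peaks, a median width of 242 bp, 34.7% inside a gene, 10.5% at gene ends, 52.3% in clusters and 11.03% near a wildtype peak. Allowing 10 kb to a gene gave 80.1% inside a gene, 24.2% at gene ends and 22.9% in clusters. Counting distance to protein-coding and lncRNA genes only gave 64.3% inside a gene. Near a wildtype peak were 13.8% when sharing needed 50% of both peaks and 0% when a gap of 10 kb counted as shared. Clusters held 54.7% with members within 1 Mb and 12.2% within 10 kb. With the peak inside the gene there were 390 genes and 106 lncRNA genes. Within 100 kb there were 3198 genes, 833 lncRNA genes and 1 p53-linked lncRNA gene. Among settings chosen after seeing the data, keeping peaks over 5 Mb from the largest gene-free interval gave 65.3% inside a gene and 19.1% in clusters, and leaving out clusters of 3 or more gave 14.7% at gene ends and 15.4% in clusters. Limits are the unknown depth and score scale, 1 library per genotype, and promoter windows for 27305 genes only.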

Other observations

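Of the R273H-only arm peaks, 9 lay within 1 kb of a wildtype peak, near LINC00273 (416 bp), PPP1R1AP2 (503 bp), ANKRD30BL (274 bp), FRG1GP (448 bp), LOC105379273 (286 bp), RPS24P10 (776 bp), SRGAP3 (91 bp), LOC124905071 (29 bp) and LOC107986487 (18 bp). Their own scores were 50.4 to 77.7. These peaks were listed after their values were seen, and no test was run on them. KATNAL2, a microtubule-severing family gene, held 2 R273H-only peaks of 650 bp and score 51.3 each.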
